A study of Mus musculus with 15 samples.

Results

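Genes that make, degrade, bind or respond to retinoic acid were followed through the development of the mouse secondary palate, the tissue that comes to separate the mouth from the nasal cavity. The 9 genes, Aldh1a1, Aldh1a2, Aldh1a3, Cyp26a1, Cyp26b1, Rarb, Rarg, Crabp1 and Crabp2, were chosen by name and found by symbol among the 54232 genes of the deposited count table. Palates of wild-type mice were collected on days 13.5, 14.5, 15.5 and 16.5 of embryonic life, written with an E before the day, and after birth (P0, given as postnatal), and no genotype, drug or other treatment differed between the groups. Each stage had 3 libraries of bulk RNA sequencing, and each library pooled the palates of 3 embryos, so that replicates are pools of animals and not single animals. Among its aims the series lists a profile of the palate's transcriptome over time, which the stage comparisons address.

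Retinoic acid is made from vitamin A in a pair of oxidation steps, retinol to retinal and retinal to retinoic acid, and the second step is carried out by the retinaldehyde dehydrogenases Aldh1a1, Aldh1a2 and Aldh1a3. The Cyp26 enzymes hydroxylate retinoic acid for removal, the Crabp proteins carry it in the cytoplasm, and the Rar receptors, paired with Rxr receptors on DNA, switch genes on when it binds. Both an excess and a shortage of retinoic acid in the embryo are long known to cause cleft palate, and mice that lack Cyp26b1 have a cleft palate.

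Rarb and Cyp26a1 are the members best known as direct targets of retinoic acid receptors, and their promoters are shown because, of the member promoters searched, these held the receptors' response element. RefSeq promoter windows on GRCm38.p6, each running from 250 bases before to 50 bases after a start site, were available for 7 of the 9 genes, 9 windows in all. The windows were searched on both strands for the spaced direct repeat named DR5, written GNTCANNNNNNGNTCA, and for the closer repeat DR2, written GNTCANNNGNTCA. DR5 was present in 2 of the 9 windows and DR2 in 0. Of all 32851 windows, 283 (0.861%) held DR5 and 367 held DR2. The Rarb match, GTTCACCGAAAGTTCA, lay on the gene's own strand at bases -52 to -37 from the start site. The Cyp26a1 match, GTTCACCCAAAGTTCA, lay on the opposite strand at bases -32 to -17, so the printed promoter shows its complement. A match of letters is a description and not evidence of binding. The Rarb start site used here lies inside the gene as counted (chr14:16430839-16819156), and the Rarb counts do not separate its start sites. The 250 bases before each start follow 5′ to 3′ on the strand of the gene, with the DR5 match in capitals, for Rarb (chr14:16575477-16575726, minus strand) and Cyp26a1 (chr19:37697558-37697807, plus strand).
Rarb: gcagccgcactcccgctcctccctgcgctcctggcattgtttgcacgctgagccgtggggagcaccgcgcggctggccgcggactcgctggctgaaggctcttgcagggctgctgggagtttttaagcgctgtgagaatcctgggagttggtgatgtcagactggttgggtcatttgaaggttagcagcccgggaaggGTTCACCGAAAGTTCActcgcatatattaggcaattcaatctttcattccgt
Cyp26a1: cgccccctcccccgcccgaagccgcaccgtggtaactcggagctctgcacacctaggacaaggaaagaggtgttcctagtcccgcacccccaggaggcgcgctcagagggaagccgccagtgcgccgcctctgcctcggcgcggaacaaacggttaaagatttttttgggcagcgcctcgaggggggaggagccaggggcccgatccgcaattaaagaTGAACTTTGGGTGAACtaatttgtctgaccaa

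The libraries held 21470759 to 69019565 counts. Levels are given as CPM, the standard scaling of counts to the library total, here adjusted with TMM factors (trimmed mean of M values), and, where genes are compared with each other, as RPKM, the same value per kilobase of gene. A level of 3 counts, taken as the detection floor, was 0.0421 to 0.131 CPM, and every member stood above it in every library, the lowest count being 30 for Cyp26a1. All 10 markers of palatal mesenchyme and all 8 of oral and palatal epithelium were above 3 counts in every library, so both kinds of marker were detected throughout. Some were close to the floor, with Tbx22 at 5 counts in P0 replicate 2. Detection does not show how much of a library came from the palate. RNA of neighbouring tissues was present too. E13.5 replicate 2 held the most brain RNA of its stage (2320 CPM summed over the markers of neurons and brain, against 1250 and 735 CPM), and E14.5 replicate 1 the most RNA of hindbrain, neck and trunk Hox genes (519 CPM summed over 8 genes, against 200 and 81.5 CPM). P0 replicate 3 stood apart with 5350 CPM of summed skeletal muscle markers, against 26200 and 33500 CPM, and with 2680 CPM of oral epithelial markers, against 706 and 1170 CPM. In bulk RNA, fewer cells of a type and less RNA per cell cannot be told apart.

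The genes showed 3 patterns over time. Cyp26b1, Rarb, Aldh1a2, Crabp1 and Crabp2 were lower at P0 than at E13.5, Aldh1a1 was higher, and Aldh1a3, Cyp26a1 and Rarg passed no test between stages. Over all 5 stages, 6 of the 9 changed (F test of edgeR's quasi-likelihood fit; a call is an adjusted p under 0.05, by Benjamini-Hochberg over 22151 tested genes), beside 59.1% of all tested genes. At an unadjusted p under 0.05 they were 6 as well, beside 64.7%. Between E13.5 and P0 the same test called 6, 1 higher and 5 lower, beside 56.6% of all tested genes, 29.8% higher and 26.8% lower, and 7 at an unadjusted p under 0.05, beside 61.7%. The median log2 fold change of the 9 was -1.27 in this comparison, and that of all tested genes 0.03. A count of 6 in 9 is near the background share.

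Between E14.5 and E15.5, 2 of the 9 genes passed, Aldh1a1 higher and Cyp26b1 lower, beside 26.1% of all tested genes, 12.7% higher and 13.4% lower. The libraries of these stages did not overlap for 3 members, beside 51.3% of all genes. In each of the other comparisons of neighbouring stages edgeR's test called 0 members. These were E14.5 against E13.5 (2 members at an unadjusted p under 0.05, where 16% of all genes passed, DESeq2 0, 0.00903% of all genes called by edgeR), E16.5 against E15.5 (4 unadjusted beside 21.8%, DESeq2 2, with 1.41% called by edgeR, 1.03% higher and 0.379% lower) and P0 against E16.5 (0 unadjusted, DESeq2 0, 0.352% by edgeR). DESeq2 called more of all genes than edgeR in each of these comparisons, with counts given under processing. Its member counts are therefore not to be set against edgeR's shares. From E15.5 to E16.5 the libraries of the 2 stages did not overlap for 6 of the 9 genes, beside 31.2% of all genes. Aldh1a1 was the higher of these at E16.5, and Aldh1a2, Cyp26b1, Rarb, Crabp1 and Crabp2 were lower. Their adjusted p ran from 0.0503 for Cyp26b1 to 0.384 for Aldh1a1. The comparisons of E14.5 and of P0 with E13.5 share the E13.5 libraries.

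**Figure D1:**
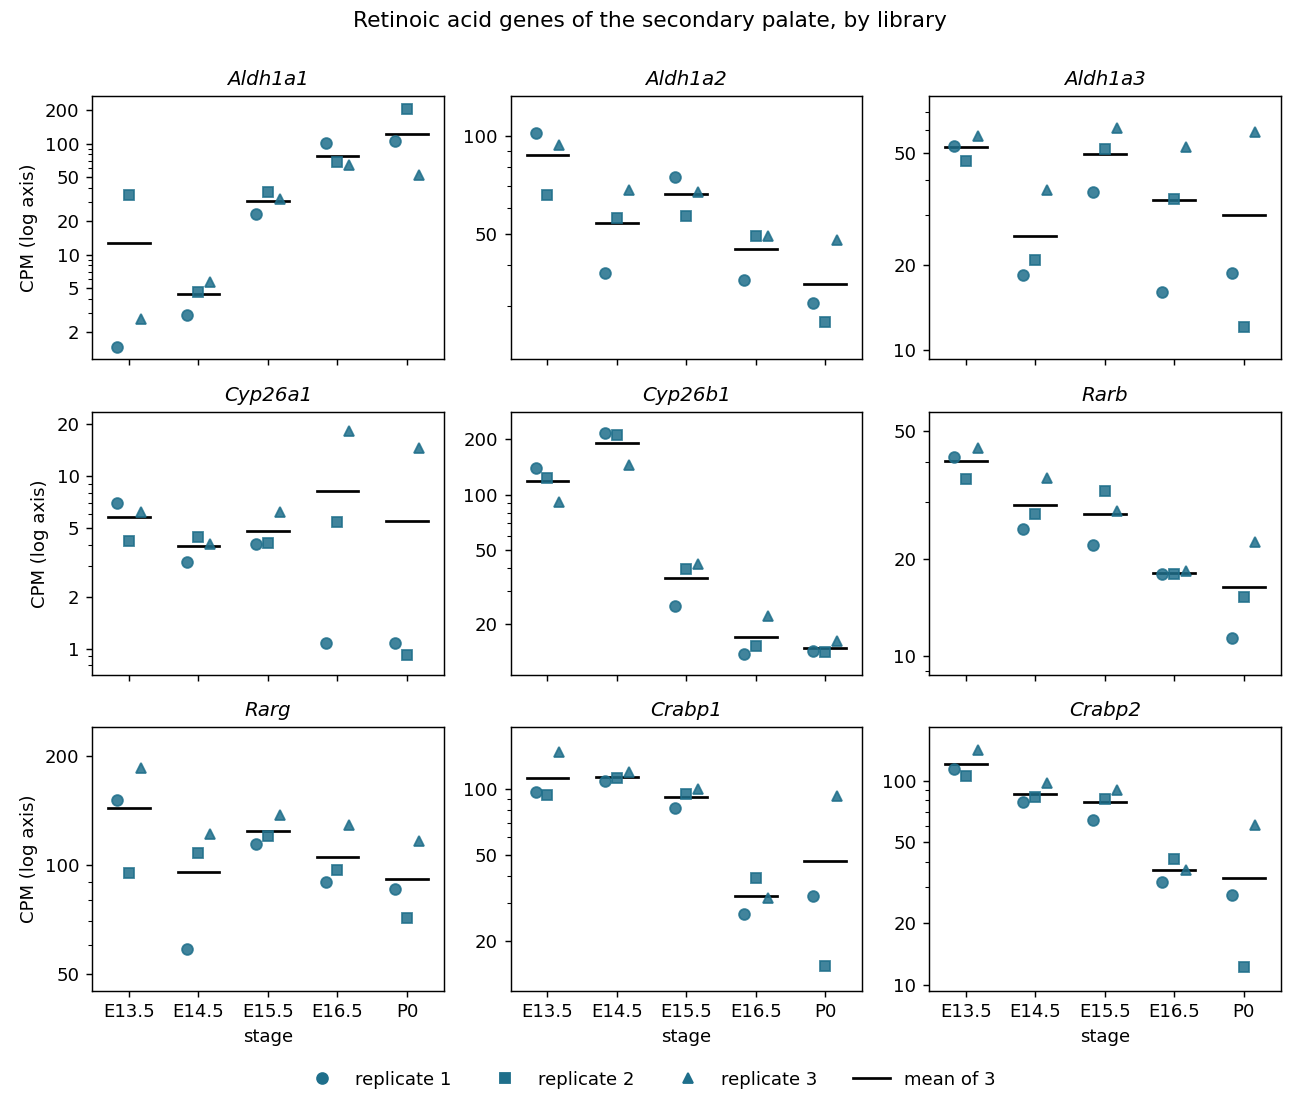
CPM of each of the 9 genes (log axis, a separate range in each panel) by stage; symbols are single libraries (circle, square and triangle for replicates 1, 2 and 3) and lines the mean of 3. Aldh1a1 runs upward from E14.5, Cyp26b1 drops between E14.5 and E15.5, and at P0 replicate 3 lies apart from replicates 1 and 2 for Aldh1a3, Cyp26a1, Crabp1 and Crabp2.

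Among the synthesising enzymes, Aldh1a1 (chr19:20492715-20643462, plus strand of GRCm38) had the widest range. At E13.5 it stood at 1.49, 34.4 and 2.66 CPM in replicates 1, 2 and 3, and at E14.5 at 2.87, 4.62 and 5.69 CPM. The E15.5 libraries held 23.2, 36.4 and 31.7 CPM, those of E16.5 101, 68.5 and 63.8 CPM and those of P0 104, 206 and 51.9 CPM. All libraries from E15.5 on exceeded all 3 of E14.5, and the single high early value was that of E13.5 replicate 2, the library of its stage richest in brain RNA. From E14.5 to E15.5 Aldh1a1 rose by a log2 fold change of 2.79 ± 0.93 (SE), 6.93-fold (adjusted p = 0.0424, edgeR). That call was lost without any 1 of the 6 libraries, with adjusted p from 0.0541 to 0.155 and log2 fold changes from 2.55 to 3.01. From E13.5 to P0 it rose 9.40-fold, a log2 fold change of 3.23 ± 0.94 (adjusted p = 0.0107, edgeR). Without E13.5 replicate 2 the latter value was 5.86 (adjusted p = 8.21e-05), and in a fit to the 6 libraries of E13.5 and P0 alone the adjusted p was 0.0667.

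Summed markers of other tissues were higher at the same stages as Aldh1a1. The 7 skeletal muscle markers, all above 3 counts at every stage, summed to 237 to 1050 CPM at E14.5, 1720 to 4940 CPM at E15.5 and 5350 to 33500 CPM at P0. Among the P0 libraries both muscle and Aldh1a1 were highest in replicate 2 and lowest in replicate 3, while at E15.5 replicate 1 held the most muscle RNA (4940 CPM, against 2570 and 1720 CPM) and the least Aldh1a1. At E16.5 the muscle markers had the order of Aldh1a1, with 34100, 17100 and 11900 CPM. The same held at E14.5 (237, 342 and 1050 CPM), but not at E13.5 (241, 282 and 429 CPM). The 8 nasal respiratory epithelial markers summed to 26.8 to 60.9 CPM at E14.5, with 6 of them above 3 counts in all libraries, to 140 to 710 CPM at E15.5 and to 1700 to 2310 CPM at P0. The 7 osteoblast markers summed to 977 to 2150 CPM at E14.5 and 13600 to 16000 CPM at E15.5, and the 8 markers of stratified epithelium to 25.8 to 36 CPM and 125 to 882 CPM. At E14.5, E15.5 and P0 the nasal markers did not have the order of Aldh1a1 (1820, 1700 and 2310 CPM at P0). They had that order at E13.5 (11.6, 17.1 and 12.2 CPM) and E16.5 (2260, 692 and 655 CPM). The 7 salivary and nasal gland markers had it at E15.5 (0.994, 7.21 and 5.64 CPM), E16.5 (48.6, 13.2 and 9.1 CPM) and P0 (117, 152 and 17.4 CPM). They did not at E13.5 or E14.5. Only 2, 3 and 4 of them were above 3 counts in all libraries of E15.5, E16.5 and P0. The part of these tissues in the result was not tested.

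Aldh1a2 (chr9:71215789-71296243, plus strand), the main source of retinoic acid in the early embryo, ran the other way. The E13.5 libraries held 102, 65.6 and 93.4 CPM, those of E14.5 37.9, 55.8 and 67.9 CPM and those of E15.5 74.4, 56.6 and 67.1 CPM. The levels were 35.9, 49.2 and 49.2 CPM at E16.5 and 30.6, 26.7 and 47.8 CPM at P0, and all 3 P0 libraries lay below all 3 of E13.5. Aldh1a2 fell to 0.403 of its E13.5 level by P0 (log2 fold change -1.31 ± 0.26 SE, adjusted p = 0.00114, edgeR). No single step between neighbouring stages passed the test.

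Aldh1a3 (chr7:66390890-66427517, minus strand), the third enzyme, averaged 52.4 ± 5.32 CPM (SD, n = 3) at E13.5 and 25.4 ± 10 CPM at E14.5. Its E15.5 mean was 49.6 ± 12.6 CPM and its E16.5 mean 34.2 ± 18.1 CPM. The P0 libraries held 18.7, 12.1 and 59.4 CPM, so that 1 library exceeded all of E13.5 and the others lay below it. The difference between P0 and E13.5 did not pass (log2 fold change -0.81 ± 0.53 SE, adjusted p = 0.212, edgeR). Without P0 replicate 3 it was -1.75 (adjusted p = 0.00733).

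Per length, the make-up of the retinaldehyde dehydrogenase RNA turned over. Of the summed RPKM of the 3 genes, Aldh1a2 held 72.7% ± 8.67 (SD, n = 3) at E13.5 and 79.0% ± 2.65 at E14.5, and 34.5% ± 13.2 at P0. Aldh1a1 held 2.93% ± 0.191 at E14.5 and 13.4% ± 3.31 at E15.5. Its share was 37.3% ± 12.5 for E16.5 and 50.9% ± 25.6 for P0. Aldh1a3 stayed between 14.7% and 23.2% in the stage means. At E14.5 the Aldh1a2 share was at least 76.7% in every library, and at P0 at most 47.5%. The P0 shares of Aldh1a1 ran from 23.6% to 74.3%, so the leading gene at P0 differed between libraries. Shares within a library do not depend on the scaling between libraries, and with 3 libraries against 3 an exact permutation test cannot go below 0.10, so none is given.

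**Figure D2:**
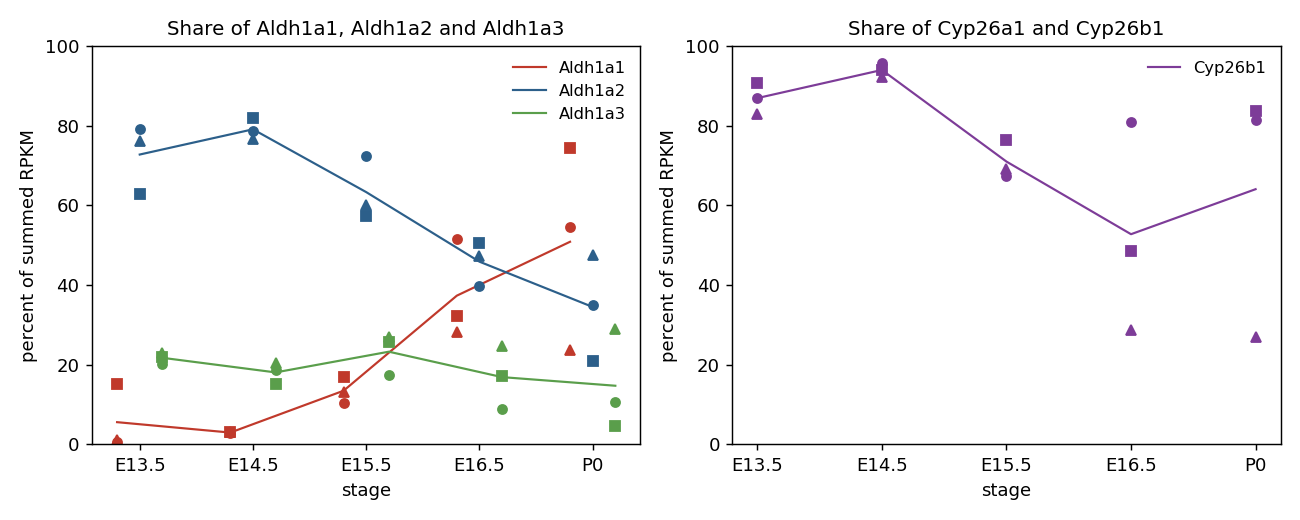
Left, the percent of the summed RPKM of Aldh1a1, Aldh1a2 and Aldh1a3 held by each gene; right, the percent of the summed RPKM of Cyp26a1 and Cyp26b1 held by Cyp26b1. Symbols are single libraries (circle, square, triangle for replicates 1, 2, 3), lines join stage means; the Aldh1a2 and Aldh1a1 means cross between E16.5 (45.8% and 37.3%) and P0 (34.5% and 50.9%).

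Among the degrading enzymes, Cyp26b1 (chr6:84571414-84593908, minus strand) had the smallest adjusted p of the 9 genes over all 5 stages (2.29e-06, edgeR). It stood at 139.5, 123 and 91.4 CPM at E13.5 and at 216, 209 and 145 CPM at E14.5. The E15.5 libraries held 25.1, 39.7 and 42.0 CPM, those of E16.5 13.8, 15.3 and 22.1 CPM and those of P0 14.3, 14.2 and 16.1 CPM. Every library of E13.5 and E14.5 exceeded every later library, and the E14.5 libraries exceeded those of E13.5. The difference between E14.5 and E13.5 did not pass after adjustment (log2 fold change 0.69 ± 0.24 SE, adjusted p = 0.212, edgeR).

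From E14.5 to E15.5 Cyp26b1 fell to 0.187 of its level (log2 fold change -2.42 ± 0.25 SE, adjusted p = 0.000195, edgeR). The next step, to E16.5, lay at the threshold (-1.06 ± 0.24, adjusted p = 0.0503), and DESeq2 gave 0.00314 for it. By P0 Cyp26b1 had fallen to 0.126 of its E13.5 level (-2.99 ± 0.26, adjusted p = 4.92e-06). Brain RNA also moved between E14.5 and E15.5. The 8 markers of neurons and brain, all above 3 counts at every stage, summed to 3710, 2640 and 1700 CPM in E14.5 replicates 1, 2 and 3 and to 1480, 942 and 776 CPM at E15.5. Their order over the libraries was that of Cyp26b1 at E14.5 and the reverse of it at E15.5, and at E13.5, with 1250, 2320 and 735 CPM, only the lowest library was the same. The 8 Hox genes summed to 81.5 to 519 CPM at E14.5, with 7 above 3 counts in all 3 libraries, and to 0.434 to 11.3 CPM at E15.5, with 2. The 7 meninges markers, all detected, summed to 201 to 363 CPM and to 81.9 to 126 CPM. Without E14.5 replicate 1, the richest in brain and Hox RNA, the log2 fold change was -2.32 (adjusted p = 0.00141). At P0 the brain markers summed to 741 to 1420 CPM, below every E14.5 library and overlapping with E13.5. The part of these tissues in the Cyp26b1 values was not tested further.

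Cyp26a1 (chr19:37697808-37701528, plus strand), the second enzyme of this kind, was low at all stages, with means of 3.90 to 8.20 CPM. The E13.5 libraries held 6.94, 4.196 and 6.21 CPM, those of E14.5 3.19, 4.45 and 4.06 CPM and those of E15.5 4.04, 4.07 and 6.19 CPM. At E16.5 it stood at 1.08, 5.39 and 18.1 CPM and at P0 at 1.08, 0.914 and 14.5 CPM, so replicate 3 was the highest at both late stages. No comparison passed, and the F test over all stages gave an adjusted p of 0.855 (edgeR). Without P0 replicate 3, Cyp26a1 was lower at P0 than at E13.5 by a log2 fold change of -2.51 (adjusted p = 0.0255). The same 2 libraries held the most Shh, a signal made by oral epithelium (69.0 CPM at E16.5 and 56.2 CPM at P0, against at most 12.7 CPM in the other libraries). They also held the most of the third Cyp26 gene, Cyp26c1, which lies beside Cyp26a1 on chr19 (30.4 and 10.8 CPM, against 0.0647 to 9.09 CPM elsewhere). The 8 oral and palatal epithelial markers, all detected, summed to 2050 CPM at E16.5 and 2680 CPM at P0 in replicate 3, against 555 to 1170 CPM in the other libraries of those stages. Krt5 alone held 1216 and 1579 CPM of these sums. At E16.5 Cdh1 and Epcam were highest in replicate 1 (137 and 113 CPM, against 117 and 70.4 CPM in replicate 3). At P0 Cdh1 was highest in replicate 2 (219 CPM, against 168 CPM in replicate 3). The remaining markers were highest in replicate 3 at both stages. The part of the epithelium in the Cyp26a1 values was not tested. Of the summed RPKM of Cyp26a1 and Cyp26b1, Cyp26b1 held 86.9% ± 3.84 at E13.5, 94.0% ± 1.76 at E14.5 and 70.9% ± 4.81 at E15.5 (SD, n = 3). At P0 it held 27.0% in 1 library and up to 83.7% in the others.

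Of the receptors, Rarb (chr14:16430839-16819156, minus strand), itself a target of retinoic acid, declined over the series. Its E13.5 libraries held 41.5, 35.4 and 44.1 CPM, those of E14.5 24.8, 27.5 and 35.8 CPM and those of E15.5 22.1, 32.6 and 28.3 CPM. The E16.5 libraries lay close together at 17.99, 17.98 and 18.4 CPM, and those of P0 held 11.4, 15.2 and 22.6 CPM. All P0 libraries were below all E13.5 libraries, and Rarb fell to 0.406 of its E13.5 level (log2 fold change -1.30 ± 0.23 SE, adjusted p = 0.00053, edgeR). No step between neighbouring stages passed.

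Rarg (chr15:102234938-102257517, minus strand) was the more abundant of these receptors per length, holding 79.4% to 87.6% of their summed RPKM in the stage means. Its level was 144 ± 45.3 CPM (SD, n = 3) at E13.5, with libraries from 95.1 to 185 CPM, and 91.4 ± 23.3 CPM at P0, with libraries from 71.4 to 117 CPM. The stages overlapped and the difference did not pass (log2 fold change -0.65 ± 0.29 SE, adjusted p = 0.0726, edgeR). It passed without E13.5 replicate 2 (adjusted p = 0.0248) and without P0 replicate 3 (adjusted p = 0.0445).

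The binding proteins had the highest levels per length. Crabp1 (chr9:54764748-54773110, plus strand), which holds retinoic acid in the cytoplasm, stood at 96.8, 93.7 and 149 CPM at E13.5. The E14.5 libraries held 109, 113 and 121 CPM and those of E15.5 82.0, 95.1 and 101 CPM. At E16.5 it stood at 26.6, 38.9 and 31.5 CPM, below every earlier library, and at P0 at 32.3, 15.4 and 93.1 CPM. The step from E15.5 to E16.5 did not pass in edgeR (log2 fold change -1.52 ± 0.46 SE, adjusted p = 0.0995), and DESeq2 gave an adjusted p of 0.0202. From E13.5 to P0 Crabp1 fell (-1.27 ± 0.46, adjusted p = 0.032, edgeR). The call was lost without E13.5 replicate 3 (adjusted p = 0.101), without P0 replicate 1 (0.116) and without P0 replicate 2 (0.0735). Without P0 replicate 3, whose 93.1 CPM lies just under the lowest E13.5 library, the log2 fold change was -2.23 (adjusted p = 0.000116).

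Crabp2 (chr3:87948666-87953376, plus strand), which passes retinoic acid on to the receptors in the nucleus, stood at 114, 105 and 140.4 CPM at E13.5 and at 78.2, 83.6 and 97.3 CPM at E14.5. The E15.5 libraries held 64.2, 80.9 and 89.4 CPM, those of E16.5 32.0, 41.5 and 36.4 CPM and those of P0 27.4, 12.2 and 60.9 CPM. The E13.5 libraries exceeded all others, and Crabp2 fell to 0.279 of its E13.5 level by P0 (log2 fold change -1.84 ± 0.41 SE, adjusted p = 0.00212, edgeR). P0 replicate 3 was again the highest of its stage, and without it the value was -2.58 (adjusted p = 4.24e-05). Of the summed RPKM of both genes, Crabp1 held 59.1% to 68.6% in the stage means.

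**Figure D3:**
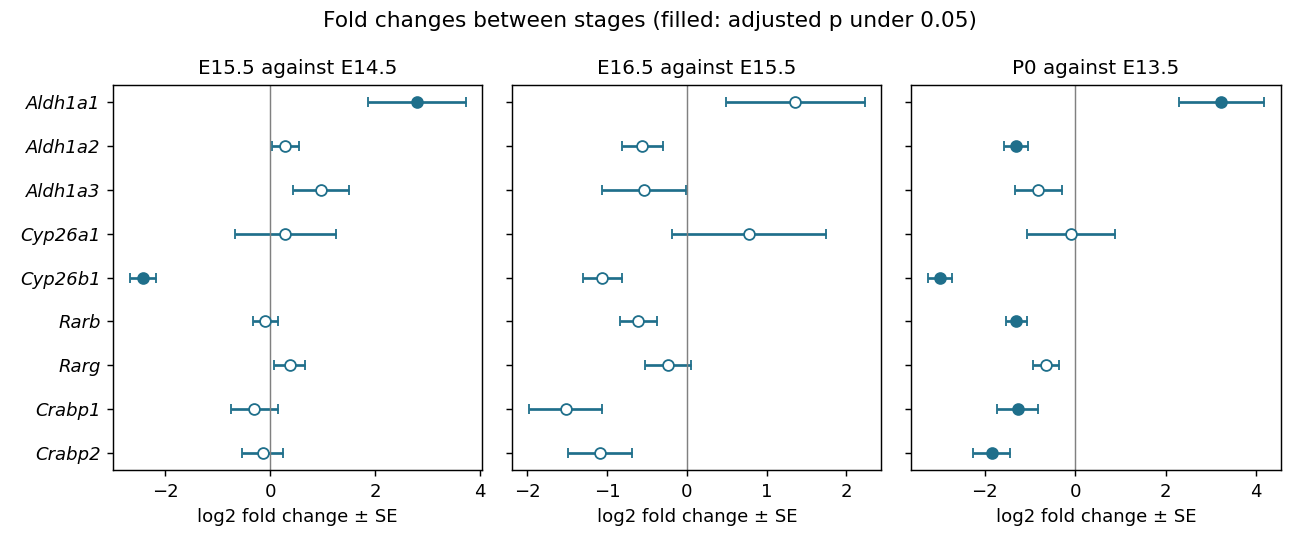
Log2 fold changes of the 9 genes ± SE in 3 comparisons of stages, with filled points where edgeR's adjusted p was under 0.05. Aldh1a1 (2.79) and Cyp26b1 (-2.42) are filled for E15.5 against E14.5, none for E16.5 against E15.5, and 6 genes for P0 against E13.5.

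Ranked by RPKM, the order of the genes changed with time. Crabp1 led at every stage, from 141 ± 38.5 RPKM (SD, n = 3) at E13.5 to 58.5 ± 51.0 RPKM at P0, and Crabp2 followed, although the libraries of both overlapped at P0. Cyp26b1 took the third place at E14.5 with 35.5 ± 7.34 RPKM and last at P0 with 2.78 ± 0.207 RPKM. Aldh1a1 went from last at E14.5, with 0.89 ± 0.289 RPKM, to the third place at P0, with 24.5 ± 15.9 RPKM. Neighbours in the order that overlapped included Aldh1a2 and Rarg at E13.5 (38.4 and 33.7 RPKM), E14.5 and E15.5, and at P0 every pair of neighbours overlapped.

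The sum of the palatal mesenchyme markers was lower at the later stages, at 917 ± 228 CPM (SD, n = 3) at E13.5 and 353 ± 81.5 CPM at P0 without overlap. Prrx1 held 31.0% to 42.9% of this sum. Of the single markers, Pax9, Msx1, Meox2 and Barx1 overlapped between E13.5 and P0. All 10 markers were above 3 counts in every library. Each member was therefore also set against this sum, a denominator chosen after its values were seen. Per 100 CPM of mesenchyme markers, Rarb stood at 4.52 ± 0.732 CPM at E13.5 and 4.84 ± 0.527 at E14.5. Its E15.5 ratio was 4.78 ± 0.795, its E16.5 ratio 5.41 ± 1.25 and its P0 ratio 4.61 ± 0.868. Aldh1a2 stood at 9.56 ± 0.9 at E13.5 and 9.81 ± 0.864 at P0 on this scale. The Rarb ratios of all 5 stages overlapped, while its CPM fell, and the Aldh1a2 means in between were 8.72 at E14.5 and 13 at E16.5. Cyp26b1 went from 13.7 ± 5.15 at E13.5 and 33.0 ± 13.3 at E14.5 to 6.08 ± 0.999 at E15.5 and 4.31 ± 0.614 at P0, without overlap between the first 2 stages and the later 3. Aldh1a1 went from 0.705 ± 0.0829 at E14.5 to 38.1 ± 29.2 at P0. Rarg went from 15.5 ± 1.28 at E13.5 to 25.8 ± 1.62 at P0 without overlap, while its mean CPM was the lower at P0. Crabp1 stood at 12.5 ± 2.43 at E13.5 and 12.1 ± 8 at P0, and Crabp2 at 13.4 ± 2.29 and 8.82 ± 4.77, and for both the libraries of these stages overlapped. Aldh1a3 (5.88 ± 1.04 and 7.77 ± 4.89) and Cyp26a1 (0.633 ± 0.064 and 1.3 ± 1.68) overlapped as well. These ratios are descriptions with no test, and the markers are shared by all of them.

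**Figure D4:**
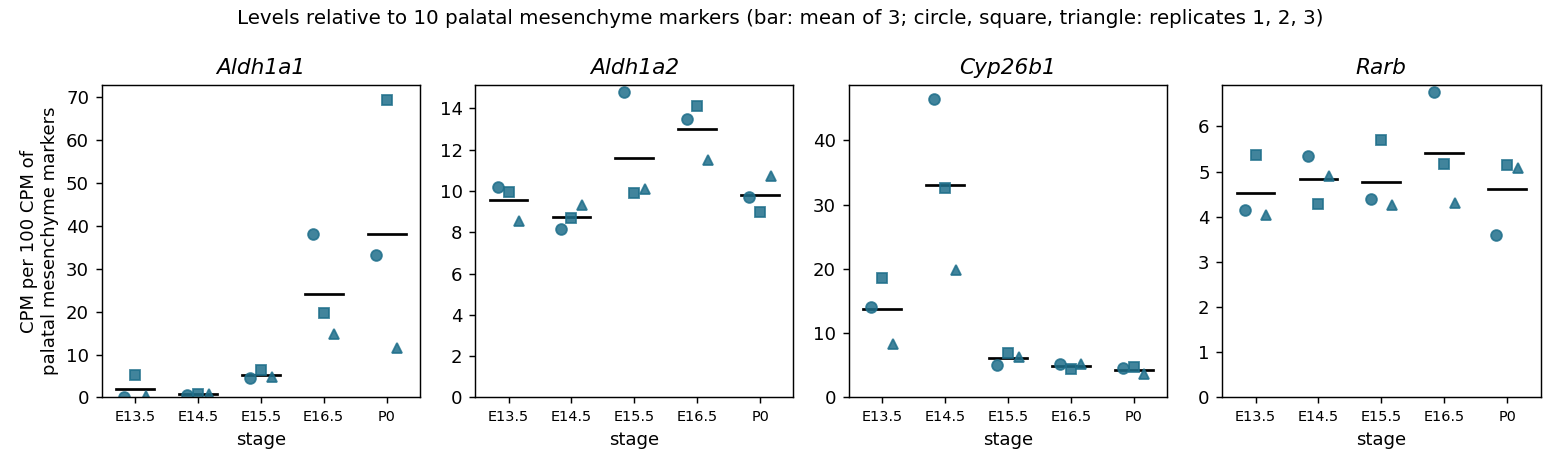
CPM of Aldh1a1, Aldh1a2, Cyp26b1 and Rarb per 100 CPM of the 10 summed palatal mesenchyme markers, by stage, with axes from 0; symbols are libraries and bars the mean of 3. Rarb stays between means of 4.52 and 5.41, and Cyp26b1 drops from 33.0 at E14.5 to 6.08 at E15.5.

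The remaining genes of the pathway were taken from 3 lists. Between E13.5 and P0, 9 of 15 genes of retinoid supply and breakdown passed, 6 higher and 3 lower, with a median log2 fold change over the list of 0.42. Of all tested genes 56.6% passed, 29.8% higher and 26.8% lower, which is close to the list's share. Rbp4, the carrier of retinol in blood, rose from 0.607 ± 0.0765 CPM (SD, n = 3) to 10.2 ± 2.15 CPM (log2 fold change 4.07 ± 0.38 SE, adjusted p = 8.03e-06, edgeR). Its receptor Stra6 fell from 45.8 ± 3.89 CPM to 11.5 ± 5.90 CPM (-1.99 ± 0.30, adjusted p = 0.000144). Among the enzymes that oxidise retinol, Adh7 rose from 0.618 ± 0.395 CPM to 19.7 ± 6.41 CPM (4.99 ± 0.58, adjusted p = 2.86e-05), while Rdh10, which provides retinal in the embryo, fell by 0.59 ± 0.19 on the log2 scale (adjusted p = 0.02). Dhrs3, which turns retinal back into retinol, rose by 1.25 ± 0.28 (adjusted p = 0.00233), and Lrat, which stores retinol as esters, rose by 1.49 ± 0.43 (adjusted p = 0.0105) at levels of 0.125 and 0.349 CPM. Rdh11, a retinal reductase, fell by 0.33 ± 0.11 on the log2 scale (adjusted p = 0.022).

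Adh1, an alcohol dehydrogenase, rose as well (log2 fold change 5.38 ± 1.19 SE, adjusted p = 0.00214, edgeR), with very unequal libraries. It stood at 59.7 CPM in E16.5 replicate 1 against 5.06 and 3.57 CPM in replicates 2 and 3, and at 23.2, 80.2 and 10.1 CPM at P0. The short-chain dehydrogenase Dhrs9 was also called higher (adjusted p = 0.000214), from 2, 2 and 1 counts in the E13.5 libraries to 2.52, 30.5 and 5.31 CPM at P0. E16.5 replicate 1 also held the most nasal respiratory markers of its stage (2260 CPM over 8 genes, all detected, against 692 and 655 CPM). At P0 these markers ran the other way, with 1820, 1700 and 2310 CPM. The 7 skeletal muscle markers, all detected, had the order of Adh1 at both stages, with 34100, 17100 and 11900 CPM at E16.5 and 26200, 33500 and 5350 CPM at P0. At E15.5 they did not, with 4940, 2570 and 1720 CPM against 2.595, 8.001 and 7.575 CPM of Adh1. The salivary and nasal gland markers given for Aldh1a1 had the order of Adh1 at E15.5, E16.5 and P0, but not at E13.5 or E14.5. The part of these tissues in the Adh1 values was not tested. Of these 9 calls, 3 were lost without single libraries. Lrat was lost without P0 replicate 1 (adjusted p = 0.0754), Rdh10 without E13.5 replicate 1 (0.0658), E13.5 replicate 3 (0.0722) or P0 replicate 1 (0.112), and Rdh11 without E13.5 replicate 1 (0.0619), E13.5 replicate 2 (0.0504) or P0 replicate 1 (0.0965). In a fit to the 6 libraries of both stages alone, Rdh10 (0.0785) and Rdh11 (0.106) did not pass, and Rdh11 was also lost with upper-quartile scaling (0.0586), with no filter on low counts (0.0611), with a mean of at least 1 CPM (0.0506) and with E13.5 replicate 2 and E14.5 replicate 1 both left out (0.0552). Rbp4 (1.83 ± 0.35, adjusted p = 0.00392) and Adh7 (3.42 ± 0.54, adjusted p = 0.00164) had risen already between E14.5 and E15.5. Stra6 was the only listed gene called between E15.5 and E16.5 (-1.35 ± 0.29, adjusted p = 0.0482), and the call was lost without any 1 of the 6 libraries (adjusted p from 0.0549 to 0.199).

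Of 6 other receptors and corepressors, 2 passed between E13.5 and P0, 1 higher and 1 lower, beside the 56.6% of all tested genes. Rxrg rose from 9.46 ± 1.44 CPM to 30.9 ± 16.3 CPM (log2 fold change 1.71 ± 0.45 SE, adjusted p = 0.00641, edgeR), and its P0 libraries held 39.8, 40.7 and 12.1 CPM. The lowest of them was P0 replicate 3, the library with least muscle RNA, and the part of muscle was not tested. The corepressor Ncor1 fell from 233 ± 21 CPM to 129.7 ± 20.9 CPM (-0.85 ± 0.16, adjusted p = 0.000822). It had also fallen from E14.5 to E15.5 (-0.57 ± 0.16, adjusted p = 0.0221), a call lost without E14.5 replicate 1 (0.105), E15.5 replicate 2 (0.0662) or E15.5 replicate 3 (0.0829). The median of this list was -0.18.

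Of 12 genes known to respond to retinoic acid, 9 could be tested. Stra8, Hoxb1 and Cdx1 had at most 5 counts in any library. Between E13.5 and P0, 7 of the 9 passed, 3 higher and 4 lower, beside 56.6% of all tested genes (29.8% higher, 26.8% lower). The median log2 fold change was -0.14, so the list did not move one way. The homeobox genes Meis1 and Meis2 and the orphan receptors Nr2f1 and Nr2f2 were lower. Meis2 stood at 208 ± 44.8 CPM (SD, n = 3) at E13.5 and 373 ± 87.2 CPM at E14.5. Its E15.5 level was 88.8 ± 11.1 CPM and its P0 level 49.0 ± 12.1 CPM. It fell from E14.5 to E15.5 by 2.07 ± 0.27 on the log2 scale (adjusted p = 0.000611, edgeR), as did Meis1 by 1.72 ± 0.29 (0.00226), Nr2f1 by 1.27 ± 0.27 (0.00695) and Nr2f2 by 0.75 ± 0.18 (0.011). The Nr2f2 call was lost without E15.5 replicate 3 (0.0532). The Meis2 libraries of E14.5, at 439.8, 405 and 274 CPM, had the same order as the summed brain markers given for Cyp26b1, as did those of Meis1. At E14.5 the order differed for Nr2f1 and Nr2f2, which were highest in replicate 2. At E13.5 it differed for Meis2 (241, 226 and 157 CPM). Nr2f1 had the brain order at E13.5, E15.5, E16.5 and P0. Its P0 libraries held 44.6, 25.8 and 25.7 CPM, with brain markers at 1420, 866 and 741 CPM. Meis2 also had that order at E15.5, E16.5 and P0. Nr2f2 had it at E13.5 and E15.5 but not at E16.5 or P0, and Meis1 only at E14.5. The part of brain RNA in these 4 genes was not tested.

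The higher genes were Tgm2, a transglutaminase, and Rarres1 and Rarres2, which were named for their induction by retinoids. Rarres2 rose from 2.19 ± 0.493 CPM to 23.8 ± 7.37 CPM between E13.5 and P0 (log2 fold change 3.44 ± 0.47 SE, adjusted p = 7.76e-05, edgeR), Rarres1 by 2.92 ± 0.47 (0.000252) and Tgm2 by 2.55 ± 0.48 (0.000763). The Tgm2 libraries were unequal, with 360, 128 and 111 CPM at E16.5 and 218, 287 and 96 CPM at P0. The summed skeletal muscle markers had the order of Tgm2 at E14.5, E16.5 and P0, but not at E13.5 or E15.5. The summed salivary and nasal gland markers had it at every stage but E14.5. The part of these tissues in the Tgm2 values was not tested. From E14.5 to E15.5, Rarres1 (1.62 ± 0.45, adjusted p = 0.0214) and Rarres2 (1.51 ± 0.44, adjusted p = 0.025) had risen. The Rarres1 call of that step was lost without E14.5 replicate 1 (0.0933), E14.5 replicate 2 (0.0746) or E15.5 replicate 1 (0.0754). The Rarres2 call was lost without E14.5 replicate 1 (0.115), E14.5 replicate 2 (0.097), E15.5 replicate 1 (0.0685) or E15.5 replicate 2 (0.0582).

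**Figure D5:**
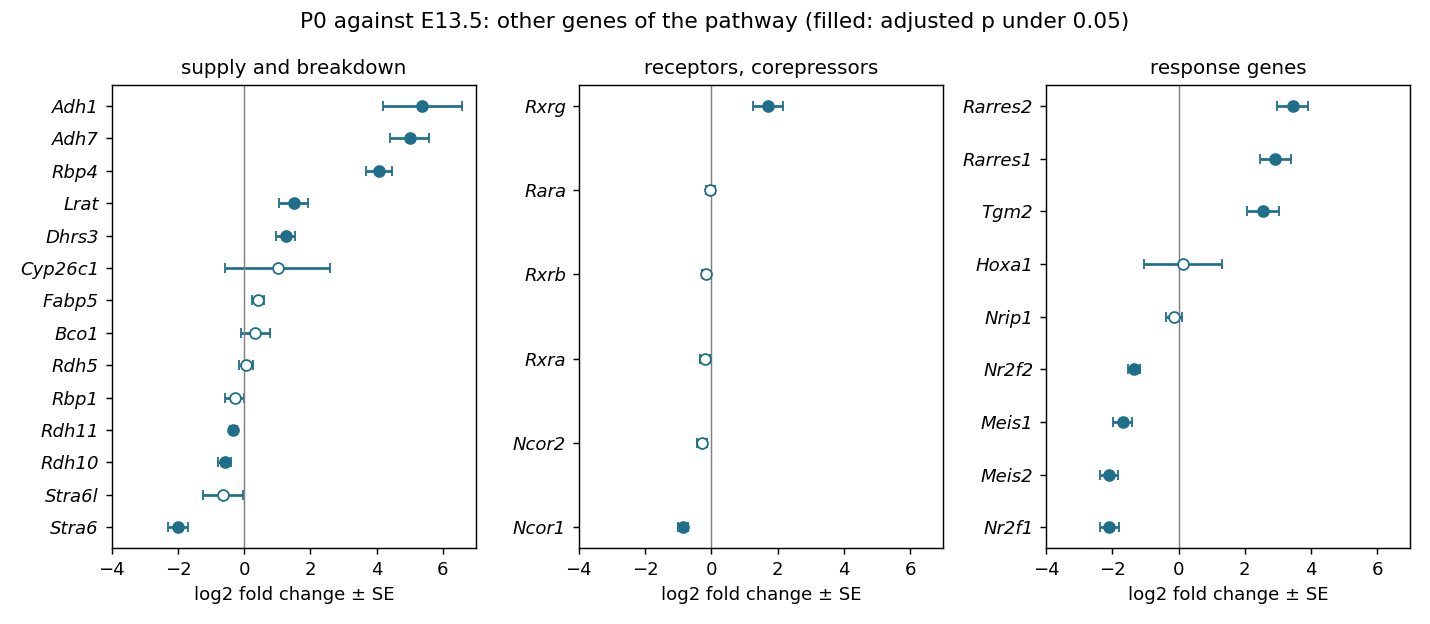
Log2 fold changes ± SE at P0 against E13.5 for the other tested genes of the pathway, in 3 panels by list, with filled points where edgeR's adjusted p was under 0.05; Dhrs9, at 1 or 2 counts at E13.5, is not drawn. Adh1 (5.38), Adh7 (4.99) and Rbp4 (4.07) lie furthest to the right, and Nr2f1 (-2.09), Meis2 (-2.09) and Stra6 (-1.99) furthest to the left.

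The genes whose log2 CPM ran most like each member over the 15 libraries were ranked by Pearson's r among 16518 genes, as a description. All points share stage, depth and tissue make-up. Crabp2 was the gene most like Crabp1 (r = 0.957), and no other member was among the 3 most like any member. Cyp26c1 (0.939) was second for Cyp26a1, after Edaradd (0.942) and before Foxi3 (0.933). Edaradd acts in the signalling that forms ectodermal organs, and Foxi3 is a transcription factor of ectodermal placodes. Cyp26b1 was matched most closely, by Arpp19 (0.988), Tsn (0.987) and Ube2e3 (0.986), and Rarb by Dnmt3b (0.969). The first for Aldh1a2 was Cdk2 (0.966), for Aldh1a1 Gja3 (0.935), for Rarg Ctdspl (0.939), for Aldh1a3 Neil3 (0.919) and for Crabp2 9930104L06Rik (0.972). Among the members themselves, r was lowest between Aldh1a1 and Cyp26b1 (-0.878), and Aldh1a1 had a negative r with each of the other 8 genes.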

How the data were processed

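RNA of wild-type mouse secondary palates was measured in 15 libraries, 3 per stage, grouped by the labels. The deposited table holds raw counts of fragments per gene, made by the authors with featureCounts 2.0.1 on the reverse strand (option 2) of GENCODE M18, per the file headers, from adapter-trimmed and duplicate-marked alignments. The recorded command sets no option that ignores duplicates or that counts multi-mapped or overlapping fragments. The submitters' processing notes name mm10, cutadapt 3.4, HISAT2 2.2.1 and SAMtools 1.12. Depth was 21470759 to 69019565 counts per library, and floors cover counting error only.

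Symbols came from GENCODE M21 for 54079 of 54232 genes. Gene length was taken from the deposited table, and CPM and RPKM used TMM-adjusted totals. No member shared an exon on its strand with another gene. Counts passing filterByExpr (minimum count 10, 22151 genes) were fitted over all 15 libraries with a coefficient for each stage (edgeR 4.0.16 in R 4.3.3) and tested with the quasi-likelihood F test, adjusted by Benjamini-Hochberg over all tested genes (threshold 0.05). The common biological coefficient of variation was 0.332. The procedure was tested on simulated data. Log2 CPM for likeness used a prior count of 2 and genes with a mean of at least 1 CPM.

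The 9 members and all lists were chosen with earlier results of these data known. Named genes were the members, the listed pathway genes past the threshold in any test or not tested, and the 3 genes most like each member. The alternatives tried were upper-quartile scaling, DESeq2 1.42.0 or its size factors alone, no filter or a mean of 1 CPM, only the 6 libraries of a comparison, a replicate block, and leaving out each library. Leaving out E13.5 replicate 2 and E14.5 replicate 1 together, and the mesenchyme denominator, were chosen after seeing the data. The replicate numbers are not stated to mark shared litters or days. The labels do not say whether the pools came from separate litters, so p values measure the spread between pools. Protein sequences were not used here, and the level of 1 marker gene is not reported here.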

Additional observations from a re-analysis of the deposited data

How the results depend on the processing

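Of the calls of members, those for Aldh1a2, Cyp26b1, Rarb and Crabp2 between E13.5 and P0 and for Cyp26b1 between E14.5 and E15.5 kept direction and side of the threshold in every alternative run. Between E14.5 and E15.5 the 2 members past the threshold became 1 in every fit that left out 1 library (range 1 to 1). For E16.5 against E15.5 it was 2 with DESeq2, 1 with a mean of at least 1 CPM and 0 to 1 without single libraries (1 without E15.5 replicate 1, where Cyp26b1 had an adjusted p of 0.0496, or without E16.5 replicate 3, with 0.0394). Between E13.5 and P0 it was 4 with only the 6 libraries of both stages, and 5 to 9 without single libraries (9 without P0 replicate 3); the Crabp1 call was also lost with upper-quartile scaling (adjusted p = 0.0519) and with E13.5 replicate 2 and E14.5 replicate 1 both left out (0.0537). For all genes past the threshold, the count of 2 at E14.5 against E13.5 was 0 to 28 without single libraries, 1000 with DESeq2, 6 with no filter, 1 with a mean of 1 CPM and 0 with only 6 libraries. The count of 5773 at E15.5 against E14.5 was 2320 to 5816 without single libraries. The count of 312 at E16.5 against E15.5 was 0 to 504 without single libraries, 2094 with DESeq2 and 0 with 6 libraries, and that of 78 at P0 against E16.5 was 10 to 216, 663 and 0, and 25 with no filter. Upper-quartile scaling moved the median of all genes at E15.5 against E14.5 from 0.03 to 0.16. The causes were not tested.

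Directions changed only for differences that did not pass with all libraries. At E14.5 against E13.5, Aldh1a1 (-1.55) ranged from -2.07 to 1.09 without single libraries, the latter without E13.5 replicate 2, and was 1.32 with E14.5 replicate 1 left out as well. Crabp1 (0.01) was 0 with DESeq2 and with its size factors, -0.06 with upper-quartile scaling, -0.02 with a mean of 1 CPM, -0.03 with 6 libraries, -0.07 with both doubted libraries left out and -0.1 to 0.26 without single libraries. At E15.5 against E14.5, Rarb (-0.09) was 0.04 with upper-quartile scaling, 0 with a mean of 1 CPM and -0.23 to 0.07 without single libraries. At E16.5 against E15.5, Cyp26a1 (0.78) ranged from -0.56 to 1.3. At P0 against E16.5 the ranges were -0.01 to 1 for Aldh1a1, -1.16 to 0.25 for Aldh1a3, -3.05 to 0.75 for Cyp26a1, -0.34 to 0.03 for Cyp26b1, -0.45 to 0.06 for Rarb, -0.45 to 0.95 for Crabp1 and -0.9 to 0.26 for Crabp2. At P0 against E13.5, Cyp26a1 (-0.09) was 0.02 with upper-quartile scaling, 0.01 with a mean of 1 CPM and -2.51 to 0.45 without single libraries.

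Shares of counts in place of RPKM weight genes by length. In order of stage they were 56.9%, 64.7%, 45.6%, 28.5% and 20.3% for Aldh1a2 and 48.1%, 57.0%, 54.4%, 46.7% and 56.8% for Crabp1. They were 5.22%, 20.8% and 49.9% for Aldh1a1 from E14.5 to E16.5, 34.4%, 30.0% and 33.6% for Aldh1a3 and 95.2%, 97.9% and 88.0% for Cyp26b1 from E13.5 to E15.5, and 81.8% and 85.1% for Rarg at E15.5 and E16.5. With unadjusted totals, Rarb at E16.5 was 3.29 RPKM. With the replicate block, Aldh1a3 (adjusted p = 0.0308) and Rarg (0.0278) were also called between E13.5 and P0, 8 members in all, and the counts of all genes past the threshold were 135, 5860, 422, 35 and 12595 in the order of the comparisons. Same-numbered libraries of different stages correlated over 0.1 in 4 of 15 pairs (r from -0.303 to 0.548), and the best match had the same number in 5 of 15. All of these were replicate 3, in which the sum of the oral epithelial markers was also highest at every stage (538, 476, 1470, 2050 and 2680 CPM). Single markers differed, and Shh was lowest in replicate 3 at E13.5 and E14.5. Replicates 1 and 2 did not match their number. Each library was set against the mean of only 3, so the values of the replicates are tied to each other. These matches do not settle whether the numbers pair the libraries. Depth was lowest at P0, where 30 counts of Cyp26a1 was the smallest value of a member.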
